A study of Mus musculus with 12 samples.

Results

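Collagen genes were examined in mouse striatum, the forebrain region in which repeated morphine produces lasting changes in locomotor responses. A gene was counted as a collagen gene when the only symbol assigned to its probe set was Col, 1 or 2 digits, the letter a and 1 or 2 further digits, such as Col8a1. The rule found 44 genes, measured by 46 probe sets, of 19935 genes with a single symbol. Col6a5 and Col6a6 had 2 probe sets each, which were averaged, and the other 42 genes had 1. The study asked how inhibiting histone deacetylases, here with sodium butyrate, alters responses to repeated morphine. Male Swiss-Albino mice, 2 months old, received 6 induction trials. ButMorphine mice (3 arrays) were given 300 mg/kg sodium butyrate and then 20 mg/kg morphine at each trial, SalMorphine mice (3 arrays) were given vehicle and then 20 mg/kg morphine, and Saline mice (6 arrays) were given vehicle only. A single challenge injection followed 7 days after induction, and striatal RNA was taken 1 h later. The source labels give the Saline mice a saline challenge, whereas the protocol text describes a morphine challenge for all animals, so the Saline mice may or may not have received morphine once. Each array carried RNA pooled from 4 animals, and a value therefore shows no difference between single mice. The labels call the arrays biological replicates without naming cohorts, so the p-values do not reach beyond these pools. The Saline part of the spread behind them is that within mirrored pairs of arrays, described below. It leaves out any spread between the pairs.

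Collagens are the triple-helical proteins of the extracellular matrix. Fibrillar collagens form the cables of connective tissue, network-forming collagens build sheets such as basement membranes, beaded-filament and fibril-associated collagens link these structures to one another, and a few family members span the cell membrane. In brain, collagens are concentrated in vessel walls, the meninges and the choroid plexus, while some transmembrane and fibril-associated members are also made by neurons. In bulk tissue, fewer cells of a type and less RNA per cell cannot be told apart.

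The deposited values were differences from a baseline on a scale read here as log2, so they hold changes of a gene between arrays and not its level. The 6 Saline arrays were mirror images in pairs (1 with 2, 3 with 4, 5 with 6): each pair summed to 0 to within 1.0e-06 for every row. They therefore hold only 3 independent values, and their mean and median were 0 for every gene by construction. A coarse level could be read from the rounding of the stored numbers. Of the 46 collagen probe sets, 45 had been stored at an original value between 4 and 8, and none between 8 and 16, the brighter class that held 24% of all genes; the class of Col6a4 could not be read. Among 8 measured markers of striatal projection neurons, the principal neurons of this region, 7 were in the brighter class. Apart from Col6a4, the collagen differences below were thus measured among the dimmer genes of the array.

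Col8a1 was the collagen gene that passed the test in SalMorphine striatum. Col8a1 encodes the alpha1 chain of type VIII collagen, a short-chain collagen that forms hexagonal networks under endothelium and in vessel walls. It read 0.37, -0.07 and 0.25 on the ButMorphine arrays, 0.41, 0.47 and 0.27 on the SalMorphine arrays, and from -0.08 to 0.08 (median 0) on the Saline arrays. All 3 SalMorphine arrays lay above every Saline array, as for 3.84% of all genes, while ButMorphine arrays 1 and 3 did and ButMorphine array 2 lay inside the Saline range. The mean was 0.18 ± 0.23 in ButMorphine, 0.39 ± 0.10 in SalMorphine and 0 ± 0.07 in Saline (SD, n = 3, 3 and 6 arrays). SalMorphine exceeded Saline by 0.39 ± 0.08 (SE), a 1.31-fold difference with a 95% interval of 0.22 to 0.56 on the log2 scale and an adjusted p of 0.0222 by limma. This call counted the mirrored Saline arrays as 6; with 1 array of each pair, the difference kept its direction and the adjusted p was 0.152 or 0.116, depending on which arrays were kept. Without SalMorphine array 2 the difference was 0.34, with an adjusted p of 0.0747, and after quantile normalization the adjusted p was 0.171.

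The other chain of the same collagen type did not pass the test. Col8a2 read -0.02, -0.08 and 0.07 in ButMorphine, -0.05, 0.18 and -0.04 in SalMorphine, and -0.14 to 0.14 in Saline. Both morphine groups overlapped Saline, and SalMorphine differed from Saline by 0.03 ± 0.07 (adjusted p = 0.907). Col10a1, the remaining short-chain network collagen and a product of hypertrophic cartilage, read -0.02, -0.13 and -0.03 in ButMorphine, -0.01, 0.25 and -0.20 in SalMorphine and -0.08 to 0.08 in Saline. No difference of Col10a1 passed the test, at -0.06 ± 0.08 for ButMorphine and 0.01 ± 0.08 for SalMorphine, each against Saline.

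The promoter windows of the type VIII pair are printed because 1 of the 2 genes passed the test. Each runs from 250 bases before to 50 bases after the annotated start in RefSeq on GRCm38.p6, 5′ to 3′ on the strand of the gene, with capitals for GGGCGG or its reverse complement CCGCCC, the GC-box motif. The Col8a1 window is chr16:57754688-57754987 on the minus strand and the Col8a2 window is chr4:126286544-126286843 on the plus strand.
Col8a1: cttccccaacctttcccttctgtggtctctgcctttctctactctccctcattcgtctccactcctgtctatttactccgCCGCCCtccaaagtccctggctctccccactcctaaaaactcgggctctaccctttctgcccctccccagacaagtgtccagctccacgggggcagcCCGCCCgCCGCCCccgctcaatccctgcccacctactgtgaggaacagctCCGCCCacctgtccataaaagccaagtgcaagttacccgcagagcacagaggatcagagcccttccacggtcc
Col8a2: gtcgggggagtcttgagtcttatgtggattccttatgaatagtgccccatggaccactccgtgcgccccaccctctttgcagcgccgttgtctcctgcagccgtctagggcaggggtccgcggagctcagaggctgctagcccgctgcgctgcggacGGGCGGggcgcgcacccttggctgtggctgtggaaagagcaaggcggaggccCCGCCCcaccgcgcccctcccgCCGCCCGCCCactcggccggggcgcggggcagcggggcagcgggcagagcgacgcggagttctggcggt
Both windows held 4 matches, of which a pair overlaps in Col8a2, and their GC contents were 60.3% and 71.7%. Windows, 38 in all, were found for 35 of the 44 collagen genes. A collagen gene was counted when any of its windows matched, whereas the share over all windows is per window. GGGCGG on either strand occurred in 22 of these 35 genes and in 35.7% of all 32851 windows. The median GC content was 59.8% over collagen windows (37.7% to 75%) and 52.7% over all windows. TATAAA on either strand occurred in 5 of the 35 genes, Col10a1, Col11a2, Col13a1, Col17a1 and Col3a1, and in 13.6% of all windows. TGAGTCA, the AP-1 motif, occurred on either strand in 1 collagen gene, Col6a1, and in 5.2% of all windows. A match is a description of the letters in these windows.

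Across the family, 1 of the 44 collagen genes was higher in SalMorphine than in Saline and 0 were lower at an adjusted p under 0.05, where 2.66% of all genes passed (1.37% higher, 1.29% lower). At an unadjusted p under 0.05, limma gave 1 higher and 4 lower, against 6.81% and 8.73% of all genes. The 4 lower were Col19a1, Col6a1, Col6a2 and Col6a5, and none of them passed after adjustment. ButMorphine against Saline gave 0 collagen calls in either direction by limma, where 2.48% of all genes passed (1.85% higher, 0.637% lower); 1 was higher and 3 were lower at an unadjusted p under 0.05, against 10.5% and 6.44% of all genes, and the lowest adjusted p of a collagen was 0.219. With both morphine groups averaged and set against Saline, Col8a1 was again the 1 gene called, at 0.29 ± 0.06 (adjusted p = 0.0246), where 4.59% of all genes passed (2.69% higher, 1.91% lower). That call was lost with 1 array of each mirrored Saline pair (adjusted p = 0.161 or 0.147) and after quantile normalization (adjusted p = 0.116). It was also lost without ButMorphine array 1 or 3 or without Saline array 2, 3 or 6, at adjusted p-values of 0.0513 to 0.0556. These 3 contrasts share their Saline arrays, and the last repeats the morphine arrays of the others. Differences from Saline ran from -0.19 to 0.18 over the collagens in ButMorphine and from -0.16 to 0.39 in SalMorphine.

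**Figure D1:**
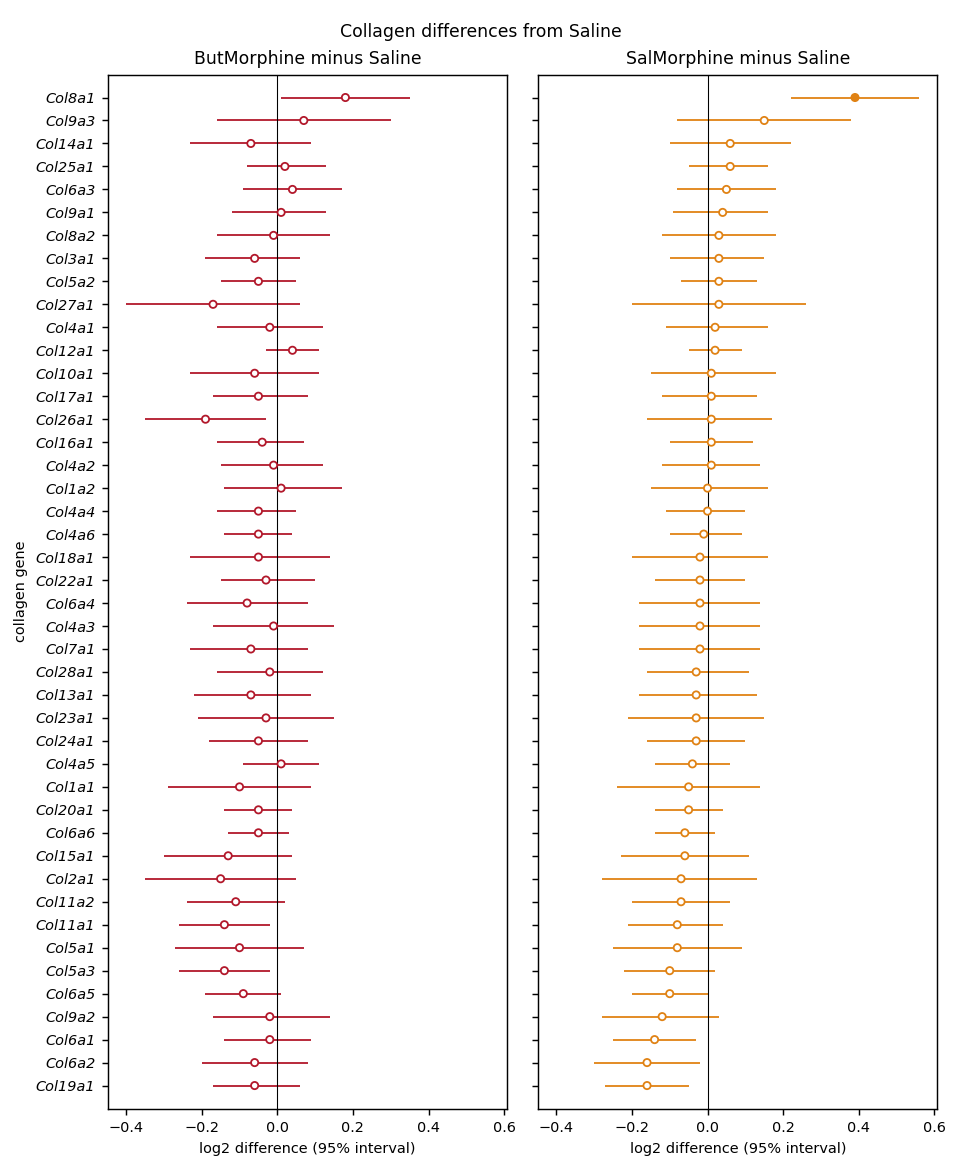
Difference from Saline on the log2 scale (horizontal axis) for each of the 44 collagen genes, ButMorphine on the left and SalMorphine on the right; points are group differences, bars are 95% intervals, and a filled point has an adjusted p under 0.05. Col8a1 in SalMorphine, at 0.39, is the filled point, and all other points lie between -0.19 and 0.18.

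Collagen genes shifted together on single arrays. The median over the 44 genes was -0.04, -0.08 and -0.03 on the ButMorphine arrays, -0.10, 0.13 and -0.06 on the SalMorphine arrays, and between -0.08 and 0.08 on the Saline arrays. SalMorphine array 2 thus stood apart from its group: 39 of the 44 collagens were above 0 there, against 3 on SalMorphine array 1 and 7 on SalMorphine array 3. On the same 3 arrays, 53.9%, 47.1% and 41.9% of all genes were above 0, with medians of 0.01, -0.01 and -0.02. SalMorphine array 2 was the highest of the 3 SalMorphine arrays for 41 of 44 collagens and for 43.3% of all genes. The list mean of cortical excitatory neuron markers was -0.74 on that array, against 0.14 and -0.26 on SalMorphine arrays 1 and 3. A link between these markers and the collagen shift was not tested. On the ButMorphine arrays 10, 5 and 12 collagens were above 0, where 55.9%, 50.9% and 52.7% of all genes were. All 3 ButMorphine arrays lay below 0 for 24 of 44 collagens and for 21.5% of all genes, while all 3 SalMorphine arrays did so for 5 collagens and for 19.2% of all genes. Saline arrays 3 and 4, a mirrored pair, held the widest shift in that group, with 5 and 39 collagens above 0.

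**Figure D2:**
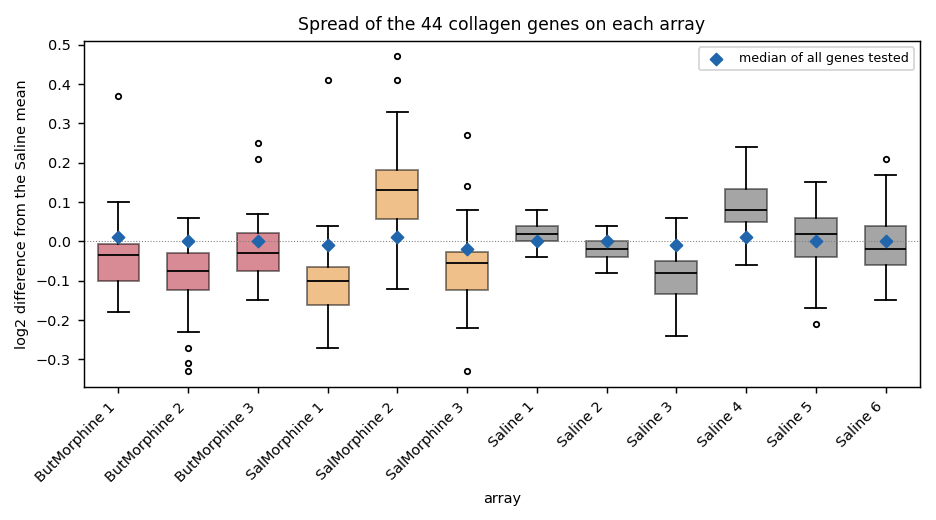
Values of the 44 collagen genes on each of the 12 arrays (vertical axis, log2 difference from the baseline), in the order ButMorphine, SalMorphine, Saline; boxes span the quartiles with a line at the median, whiskers reach 1.5 interquartile ranges, circles lie beyond, and diamonds mark the median of all genes. The box of SalMorphine array 2 sits above 0 with a median of 0.13, while those of SalMorphine arrays 1 and 3 sit below.

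This array pattern widened the spread of collagens in SalMorphine. The median within-group SD of a collagen was 0.055 in ButMorphine, 0.134 in SalMorphine and 0.0832 in Saline, and over all genes it was 0.0553, 0.0756 and 0.0609. The Saline SDs hold only the spread within mirrored pairs. The SD was larger in SalMorphine than in ButMorphine for 41 of the 44 collagens. Relative to the median of the other collagens, Col8a1 lay 0.40, 0.01 and 0.29 higher on the ButMorphine arrays, 0.52, 0.35 and 0.33 higher on the SalMorphine arrays, and between -0.04 and 0.04 from it on the Saline arrays. It thus stood above the family on 5 of the 6 morphine arrays and within the Saline range on ButMorphine array 2. The direction of the family as a whole in SalMorphine rested on single arrays. In SalMorphine minus Saline, 26 of 44 differences were below 0 (median -0.02; all genes 52.2%), and without SalMorphine array 2 there were 40 (median -0.09; all genes 56.2%). Without SalMorphine array 1 there were 14 (all genes 50.9%), and without SalMorphine array 3 there were 20 (all genes 48.8%). Leaving out 1 array of a mirrored Saline pair moves the Saline mean off 0, to opposite sides for the 2 arrays. There were 31 without Saline array 3 (all genes 53.5%) and 18 without its mirror, Saline array 4 (all genes 51.2%). In ButMorphine minus Saline, 36 of 44 differences were below 0 (median -0.05; all genes 46.4%), and leaving out any 1 array gave 29 to 39. Centring each array on its own median left 25 and 37 differences below 0 in SalMorphine and ButMorphine.

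**Figure D3:**
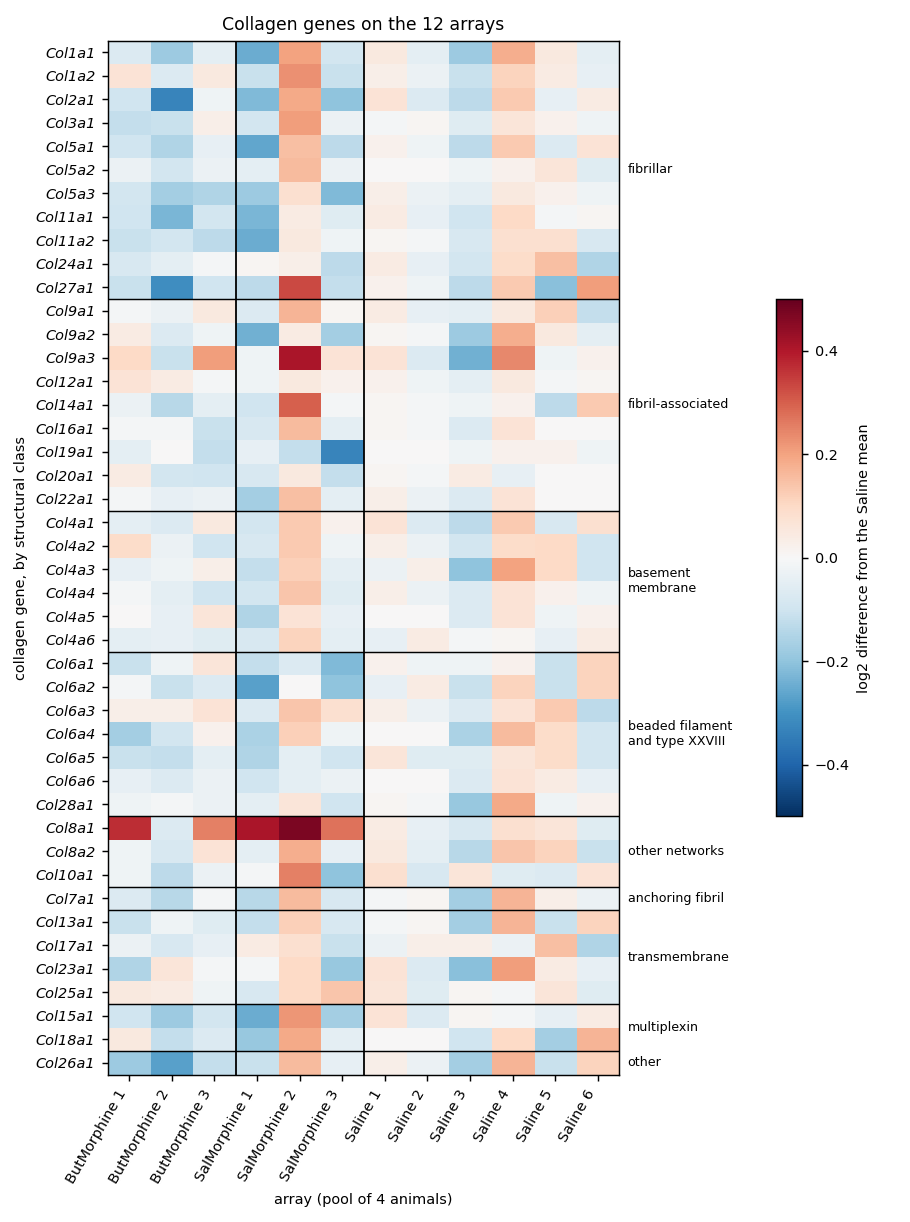
Values of the 44 collagen genes (rows, grouped by structural class) on the 12 arrays (columns, ButMorphine, SalMorphine and Saline from left to right), with colour giving the log2 difference from the baseline. The column of SalMorphine array 2 is mostly above 0 across classes, and the row of Col8a1 is above 0 on all 3 SalMorphine arrays and on ButMorphine arrays 1 and 3.

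Among the 11 fibrillar collagens, none passed the test in either morphine group, by limma. In ButMorphine 10 of 11 were below Saline, with a median difference of -0.10, 0 higher and 2 lower at an unadjusted p under 0.05; in SalMorphine 7 of 11 were below, with a median of -0.05 and 0 at that p. The median of all genes was 0.01 in ButMorphine and 0 in SalMorphine, each against Saline. At that p, 10.5% of all genes were higher and 6.44% lower in ButMorphine, and 6.81% and 8.73% in SalMorphine. Col5a3, a minor chain of type V collagen, which sets the diameter of collagen fibrils, read -0.09, -0.17 and -0.15 in ButMorphine, -0.18, 0.08 and -0.22 in SalMorphine and -0.05 to 0.05 in Saline. All 3 ButMorphine arrays and SalMorphine arrays 1 and 3 lay below every Saline array, while SalMorphine array 2 lay above them. The difference from Saline was -0.14 ± 0.06 in ButMorphine (adjusted p = 0.231) and -0.10 ± 0.06 in SalMorphine (adjusted p = 0.413). Leaving out 1 array moved the ButMorphine difference of Col5a3 between -0.16 and -0.12, with adjusted p-values of 0.0417 (without SalMorphine array 2, which enters the pooled spread) to 0.494 (without ButMorphine array 2). The SalMorphine difference moved between -0.20 (without SalMorphine array 2, adjusted p = 0.0215) and -0.05 (without SalMorphine array 3, adjusted p = 0.82).

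Col11a1, the major chain of type XI collagen, read -0.10, -0.23 and -0.09 in ButMorphine, -0.23, 0.04 and -0.06 in SalMorphine and -0.10 to 0.10 in Saline. ButMorphine reached the lowest Saline array at its upper end, and its difference was -0.14 ± 0.06 (adjusted p = 0.232). Col11a2, its partner chain, read -0.11, -0.09 and -0.13 in ButMorphine, -0.25, 0.05 and -0.02 in SalMorphine and -0.08 to 0.08 in Saline. ButMorphine lay below every Saline array, by -0.11 ± 0.06 on average (adjusted p = 0.392). Col2a1, the main cartilage collagen, read -0.10, -0.33 and -0.02 in ButMorphine, -0.22, 0.19 and -0.20 in SalMorphine and -0.13 to 0.13 in Saline. Col27a1, another fibrillar collagen of cartilage, read -0.11, -0.31 and -0.10 in ButMorphine, -0.13, 0.33 and -0.12 in SalMorphine and -0.21 to 0.21 in Saline. For both genes ButMorphine array 2 was the lowest of its group and SalMorphine array 2 the highest of all, and neither ButMorphine difference passed, at -0.15 ± 0.09 for Col2a1 (adjusted p = 0.452) and -0.17 ± 0.11 for Col27a1 (adjusted p = 0.462).

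The abundant collagens of connective tissue did not pass the test. Col1a1, the alpha1 chain of type I collagen, read -0.07, -0.18 and -0.05 in ButMorphine, -0.25, 0.20 and -0.09 in SalMorphine and -0.18 to 0.18 in Saline. Col3a1, the type III chain of vessel walls, read -0.12, -0.11 and 0.03 in ButMorphine, -0.09, 0.21 and -0.03 in SalMorphine and -0.06 to 0.06 in Saline. Both genes lay below every Saline array on SalMorphine array 1 and above every Saline array on SalMorphine array 2, where they were highest. The differences of Col1a1 were -0.10 ± 0.09 in ButMorphine and -0.05 ± 0.09 in SalMorphine, and those of Col3a1 were -0.06 ± 0.06 and 0.03 ± 0.06 in the same groups; none passed.

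The 6 type IV chains, which form the network of basement membranes, differed from Saline by -0.05 to 0.01 in ButMorphine and by -0.04 to 0.02 in SalMorphine, and none passed at an adjusted p under 0.05 or at an unadjusted p under 0.05 by limma. Col4a6, a chain of epithelial and smooth muscle basement membranes, read -0.05, -0.04 and -0.06 in ButMorphine, -0.08, 0.11 and -0.05 in SalMorphine and -0.04 to 0.04 in Saline. The ButMorphine arrays were close to one another (SD 0.01, n = 3) and lay just below the Saline arrays, with a difference of -0.05 ± 0.04 (adjusted p = 0.602). Col4a1 and Col4a2, the 2 chains of every vascular basement membrane, start 21 bases apart on opposite strands, so that their promoter windows share 78 bases. By the coordinates below, each start lies inside the other gene, so the shared stretch includes transcribed bases of both. The Col4a1 window is printed to show the shared stretch, which is in capitals; it is chr8:11312777-11313076 on the minus strand of GRCm38.p6, from RefSeq, with a GC content of 74%, and the Col4a2 window is chr8:11312555-11312854 on the plus strand.
Col4a1: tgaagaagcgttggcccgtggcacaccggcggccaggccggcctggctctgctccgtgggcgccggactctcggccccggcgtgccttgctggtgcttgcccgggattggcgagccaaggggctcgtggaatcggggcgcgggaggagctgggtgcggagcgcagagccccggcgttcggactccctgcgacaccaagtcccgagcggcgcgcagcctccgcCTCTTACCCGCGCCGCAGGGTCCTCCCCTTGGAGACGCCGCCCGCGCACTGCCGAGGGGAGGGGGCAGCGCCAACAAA
Col4a1 read -0.05, -0.07 and 0.05 in ButMorphine, -0.09, 0.13 and 0.02 in SalMorphine and -0.13 to 0.13 in Saline. Col4a2 read 0.09, -0.03 and -0.10 in ButMorphine, -0.08, 0.13 and -0.02 in SalMorphine and -0.10 to 0.10 in Saline. The pair took similar values on the SalMorphine arrays and opposite signs on ButMorphine arrays 1 and 3.

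The beaded-filament group (type VI chains and Col28a1, 7 genes) gave 3 of the 4 SalMorphine genes that were lower at an unadjusted p under 0.05, a threshold that 8.73% of all genes passed as lower. In SalMorphine 6 of 7 were below Saline (median -0.06), and in ButMorphine 6 of 7 were below (median -0.05); none passed after adjustment. Col6a1, a core chain of the type VI microfibril around cells, read -0.11, -0.02 and 0.06 in ButMorphine, -0.12, -0.07 and -0.22 in SalMorphine and -0.11 to 0.11 in Saline. It was one of 5 collagens below 0 on all 3 SalMorphine arrays, and its difference from Saline was -0.02 ± 0.05 in ButMorphine and -0.14 ± 0.05 in SalMorphine (adjusted p = 0.199). Col6a2, the second core chain, read -0.01, -0.11 and -0.07 in ButMorphine, -0.27, 0.00 and -0.20 in SalMorphine and -0.11 to 0.11 in Saline. SalMorphine arrays 1 and 3 lay below every Saline array and SalMorphine array 2 did not, and the difference was -0.16 ± 0.06 (adjusted p = 0.251). Col6a3, the long chain of the same trimer, read 0.03, 0.03 and 0.07 in ButMorphine, -0.07, 0.14 and 0.08 in SalMorphine and -0.13 to 0.13 in Saline. It lay on the other side of 0, by 0.04 ± 0.06 in ButMorphine and 0.05 ± 0.06 in SalMorphine, and overlapped Saline in both.

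Of the fibril-associated collagens, which bind to the surface of fibrils, 9 were measured and none passed in either group by limma. Col19a1, a collagen that in mouse brain is made by interneurons, read -0.05, 0.00 and -0.12 in ButMorphine, -0.04, -0.12 and -0.33 in SalMorphine and -0.02 to 0.02 in Saline. It was the collagen whose 3 SalMorphine arrays all lay below every Saline array, where 4.35% of all genes did so; here SalMorphine array 2 was not the highest. The difference was -0.06 ± 0.05 in ButMorphine and -0.16 ± 0.05 in SalMorphine (adjusted p = 0.126), and leaving out 1 array moved the SalMorphine difference between -0.22 (without SalMorphine array 1, adjusted p = 0.0232) and -0.08 (without SalMorphine array 3, adjusted p = 0.427). Col9a3, a type IX chain of cartilage, read 0.10, -0.11 and 0.21 in ButMorphine, -0.02, 0.41 and 0.07 in SalMorphine and -0.24 to 0.24 in Saline. Its SalMorphine difference of 0.15 ± 0.11 was the largest above 0 after Col8a1, and its 95% interval included 0 (adjusted p = 0.547). Col9a2, from the same trimer, read 0.04, -0.07 and -0.02 in ButMorphine, -0.24, 0.04 and -0.17 in SalMorphine and -0.18 to 0.18 in Saline. The sign of its SalMorphine difference was the opposite, at -0.12 ± 0.07 (adjusted p = 0.449).

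Col12a1 varied little, at 0.07, 0.04 and -0.01 in ButMorphine, -0.02, 0.05 and 0.02 in SalMorphine and -0.05 to 0.05 in Saline. Its relative Col14a1, which also coats type I fibrils, read -0.03, -0.14 and -0.05 in ButMorphine, -0.10, 0.30 and -0.01 in SalMorphine and -0.13 to 0.13 in Saline. Neither passed, and the high value of Col14a1 was again SalMorphine array 2.

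The remaining classes held 8 genes with no call. Col15a1, a multiplexin collagen of vessel basement membranes, read -0.10, -0.18 and -0.09 in ButMorphine, -0.25, 0.22 and -0.17 in SalMorphine and -0.07 to 0.07 in Saline. ButMorphine lay below every Saline array, by -0.13 ± 0.08 on average (adjusted p = 0.466), and SalMorphine lay on both sides, at -0.06 ± 0.08; leaving out 1 array moved the SalMorphine difference between -0.21 (without SalMorphine array 2, adjusted p = 0.0324) and 0.03 (without SalMorphine array 1, adjusted p = 0.912). With Col5a3, Col11a2 and Col4a6, it made 4 of 44 collagens whose ButMorphine arrays all lay below every Saline array, against 4.55% of all genes. Col18a1, the other multiplexin and the source of endostatin, read 0.05, -0.12 and -0.07 in ButMorphine, -0.19, 0.19 and -0.05 in SalMorphine and -0.17 to 0.17 in Saline. Col25a1, a neuronal transmembrane collagen whose shed part is found in amyloid plaques, read 0.05, 0.04 and -0.02 in ButMorphine, -0.08, 0.10 and 0.14 in SalMorphine and -0.06 to 0.06 in Saline. It differed from Saline by 0.02 ± 0.05 in ButMorphine and 0.06 ± 0.05 in SalMorphine, and neither passed. Col7a1, which forms the anchoring fibrils of skin, read -0.07, -0.14 and -0.01 in ButMorphine, -0.14, 0.16 and -0.08 in SalMorphine and -0.17 to 0.17 in Saline, and overlapped Saline in both groups.

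**Figure D4:**
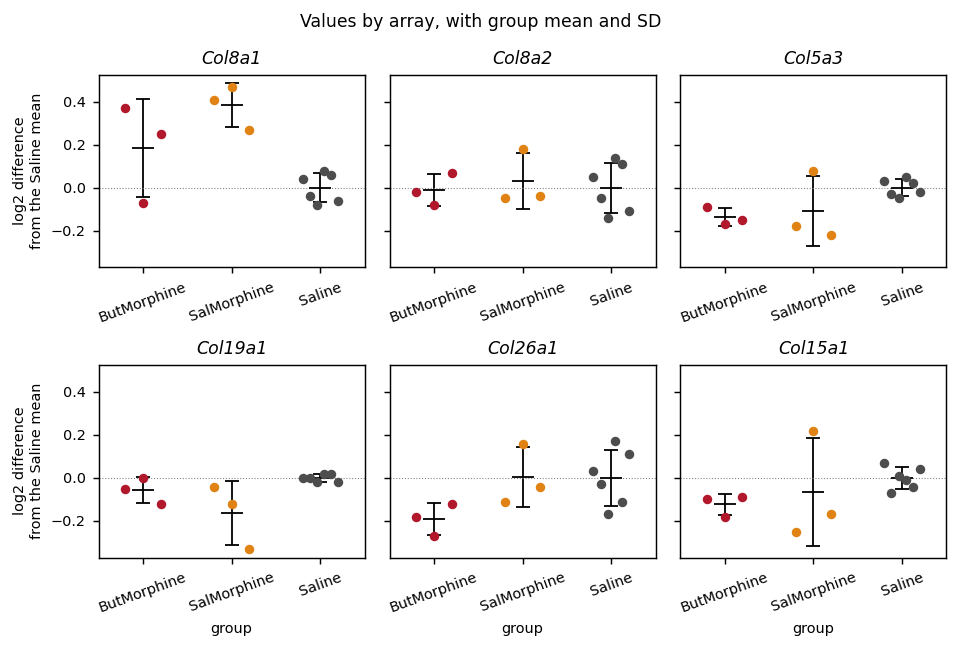
Values of 6 collagen genes on single arrays (vertical axes, log2 difference from the baseline) in ButMorphine, SalMorphine and Saline from left to right; points are arrays and bars give mean ± SD. Col8a1 lies above the Saline arrays on all 3 SalMorphine arrays, Col8a2 overlaps Saline in both groups, and Col5a3 and Col15a1 lie below it on all 3 ButMorphine arrays.

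Adding butyrate to morphine was compared directly between ButMorphine and SalMorphine. No collagen passed, and neither did any other gene by limma: percent called was 0 of 19935 genes, and at an unadjusted p under 0.05, 0 collagens were higher and 2 were lower, against 6.36% and 2.26% of all genes. The 2 genes were Col26a1 and Col8a1. Col26a1, a secreted collagen with little known function, read -0.18, -0.27 and -0.12 in ButMorphine, -0.11, 0.16 and -0.04 in SalMorphine and -0.17 to 0.17 in Saline. Its ButMorphine arrays lay below all 3 SalMorphine arrays, where 2.99% of all genes did, and the difference was -0.20 ± 0.09 (adjusted p = 0.557). Against Saline, Col26a1 differed by -0.19 ± 0.08 in ButMorphine (adjusted p = 0.219) and by 0.01 ± 0.08 in SalMorphine. For Col8a1 the direct difference was -0.20 ± 0.09 (adjusted p = 0.559), with the groups overlapping at ButMorphine array 1. It was -0.30 without ButMorphine array 1 and -0.08 without ButMorphine array 2. That difference was not past the threshold, so the Col8a1 call in SalMorphine and its absence in ButMorphine do not show that the groups differ. Over the family the 95% intervals of ButMorphine minus SalMorphine reached from -0.47 to 0.29, with a median half-width of 0.155. Differences were below 0 for 32 of 44 collagens (median -0.04; all genes 43.1%), but without SalMorphine array 2 for 8 of 44 (median 0.04; all genes 38.1%).

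Genes that process, bind, cut or neighbour collagen were set beside the family as 5 lists. Their counts of calls stand against the 2.48% of all genes that passed in ButMorphine (1.85% higher, 0.637% lower) and the 2.66% in SalMorphine (1.37% higher, 1.29% lower). At an unadjusted p under 0.05 by limma, 10.5% of all genes were higher and 6.44% lower in ButMorphine, and 6.81% and 8.73% in SalMorphine. The list calls counted the mirrored Saline arrays as 6 and were not followed gene by gene under the alternatives. With 1 array of each mirrored pair, calls over all genes fell from 495 to 142 or 144 in ButMorphine and from 531 to 117 or 186 in SalMorphine. Of 28 measured genes of collagen maturation and secretion, 1 was higher and 0 were lower in each morphine group. It was Pcolce2, which enhances the enzyme that trims procollagen, at 0.28, 0.30 and 0.24 in ButMorphine, 0.46, 0.47 and 0.35 in SalMorphine and -0.08 to 0.08 in Saline. All 6 morphine arrays lay above every Saline array, as for 1.95% of all genes. The difference from Saline was 0.27 ± 0.05 in ButMorphine (adjusted p = 0.00899) and 0.43 ± 0.05 in SalMorphine (adjusted p = 0.000358). The list medians were 0.02 in ButMorphine and -0.03 in SalMorphine. Of 11 collagen receptors, 0 passed in either group by limma, with 0 higher and 1 lower in ButMorphine and 2 higher and 0 lower in SalMorphine at an unadjusted p under 0.05. The lowest p-values belonged to Itga10, a collagen-binding integrin chain, at 0.17 ± 0.05 in SalMorphine (adjusted p = 0.0804), and Mrc2, an endocytic collagen receptor, at -0.11 ± 0.05 in ButMorphine (adjusted p = 0.233).

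Of 18 matrix proteases and inhibitors, 2 were higher in ButMorphine, and 2 were higher and 1 was lower in SalMorphine. Timp3, an inhibitor of matrix proteases bound to the matrix, read 0.44, 0.14 and 0.42 in ButMorphine, 0.37, 0.32 and 0.34 in SalMorphine and -0.05 to 0.05 in Saline. It exceeded Saline by 0.33 ± 0.06 in ButMorphine (adjusted p = 0.00724) and 0.34 ± 0.06 in SalMorphine (adjusted p = 0.00601). Adamts1, a protease that cuts proteoglycans, was 0.39 ± 0.07 above Saline in ButMorphine (adjusted p = 0.0149) and 0.41 ± 0.07 above it in SalMorphine (adjusted p = 0.012). Adamts4, a related aggrecanase, was at -0.08 ± 0.05 in ButMorphine (adjusted p = 0.473) and was 0.20 ± 0.05 below Saline in SalMorphine (adjusted p = 0.0428). That call was not followed with 1 array of each mirrored pair.

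None of 16 other basement membrane genes passed by limma. At an unadjusted p under 0.05, 1 was higher and 0 were lower in ButMorphine, against 10.5% and 6.44% of all genes. In SalMorphine 3 were higher and 1 was lower at that p, against 6.81% and 8.73% of all genes. Lamc1, the laminin gamma1 chain, differed by 0.13 ± 0.05 in ButMorphine (adjusted p = 0.175) and 0.14 ± 0.05 in SalMorphine (adjusted p = 0.154), and Lama3, a laminin alpha chain, by 0.12 ± 0.04 in SalMorphine (adjusted p = 0.109). Of 15 other genes of collagen fibrils, 0 passed in ButMorphine and 3 were higher in SalMorphine, with list medians of 0.04 and 0.14. In ButMorphine 5 were higher and 0 lower at an unadjusted p under 0.05 by limma, against 10.5% and 6.44% of all genes. At that p, 8 were higher and 0 lower in SalMorphine, against 6.81% and 8.73% of all genes. Postn, a matrix protein that binds type I collagen, was 0.13 ± 0.05 above Saline in ButMorphine and 0.28 ± 0.05 above it in SalMorphine (adjusted p = 0.0113). Ogn, a small proteoglycan that regulates fibrils, was 0.13 ± 0.04 and Prelp, which anchors basement membranes to collagen, was 0.34 ± 0.09 above Saline in ButMorphine, neither past the threshold. In SalMorphine Ogn was 0.22 ± 0.04 above Saline (adjusted p = 0.0131) and Prelp was 0.36 ± 0.09 above it (adjusted p = 0.0456). Dcn, decorin, which coats collagen fibrils, passed with both morphine groups averaged, at 0.26 ± 0.06 above Saline (adjusted p = 0.0339). The calls of these genes were not followed with 1 array of each mirrored pair.

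Markers of cell types that make collagen, and of thalamus and septum, were read on the same arrays. On these, 2.48% of all genes passed in ButMorphine and 2.66% in SalMorphine. Choroid plexus markers were higher in the morphine groups: 8 of 9 measured passed in ButMorphine and 9 of 9 in SalMorphine, with list means per array of 0.88 to 1.16 in ButMorphine, 1.20 to 1.42 in SalMorphine and -0.13 to 0.13 in Saline. Of the 9 endothelial markers, 4 were lower and 1, Slc2a1, was higher in each morphine group, with array means of -0.17 to -0.08 in ButMorphine, -0.24 to -0.16 in SalMorphine and -0.05 to 0.05 in Saline. Meningeal and perivascular fibroblast markers gave 1 call of 11 in each group, Igf2, higher by 0.62 in ButMorphine and 0.85 in SalMorphine; their array means were 0.02 to 0.11 in ButMorphine, 0.05 to 0.13 in SalMorphine and -0.05 to 0.05 in Saline. Pericyte and smooth muscle markers gave 0 calls of 11 in ButMorphine and 1 lower, Rgs5, in SalMorphine, with array means of -0.08 to 0.01 in ButMorphine, -0.11 to 0.01 in SalMorphine and -0.02 to 0.02 in Saline. On ButMorphine array 2, where Col8a1 was -0.07, the choroid plexus mean was 0.88, against 1.16 and 1.15 on ButMorphine arrays 1 and 3. The array means of thalamus and septum markers were 0.49, -0.07 and 0.24 in ButMorphine and 0.09, 0.54 and 0.65 in SalMorphine. In Saline they ran from -0.05 to 0.05. On the same morphine arrays, in the same order, Col8a1 read 0.37, -0.07 and 0.25, and 0.41, 0.47 and 0.27. Because the values are centred, no marker can be shown to be at 0. The part of these cell types and regions in the Col8a1 difference was not tested.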

How the data were processed

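Total RNA from 12 striatal pools was measured on Affymetrix Mouse Gene 1.0 ST chips, 1 for each pool, per the labels' protocols. The authors' deposited value table (28815 rows) holds log values, read as log2, already centred on a baseline; background correction, normalization, log base and the baseline used for the morphine arrays are not given in the sources used. Of the rows, 21780 had 1 gene symbol in the platform annotation, 1605 had several and 5430 had none. Probe sets of a gene were averaged, giving 19935 genes, with no filter on level. One limma model (version 3.58.1, R 4.3.3) with a mean per group over all arrays and an eBayes-moderated variance gave 4 comparisons, with two-sided p-values adjusted over all genes by Benjamini-Hochberg and a threshold of 0.05. The mirrored Saline arrays entered as 6, which makes these p-values too small. Scripts were tested on simulated data. Members and lists were chosen with earlier results of these data known. Collagens were named when past, or nearest to, the threshold, or extreme in their class, and list genes when past the threshold or lowest in p. Col8a2, Col10a1, Col11a2, Col1a1, Col3a1, Col4a1, Col4a2 and Col18a1 were added by role after their values were seen. Alternatives covered normalization, filters, weights, blocks, thresholds and left-out arrays. The number of arrays limits the precision.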

Additional observations from a re-analysis of the deposited data

How the results depend on the processing

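Main counts of collagen calls were 0 for ButMorphine against Saline, 1 for SalMorphine against Saline, 0 for ButMorphine against SalMorphine and 1 for both morphine groups against Saline. The SalMorphine count and the combined count were both 0 under quantile normalization, with Saline arrays 1 to 3 or 4 to 6 only, with 1 array of each mirrored pair, and at an adjusted p under 0.01. Measured against the baseline at 0, chosen after seeing the data, the SalMorphine count was 0 and the combined count 2 (Col8a1, and Col6a5 lower). Array weights gave a combined count of 2, and fitting only the groups compared gave 1 for ButMorphine (Col5a3, lower). Leaving out 1 array gave 0 to 1 for ButMorphine, 1 to 2 for SalMorphine, 0 in every case for ButMorphine against SalMorphine, and 0 to 3 for the combination. The genes called were not always the same. Without SalMorphine array 2, the SalMorphine calls were Col15a1 and Col5a3, both lower, and Col8a1 was not called (adjusted p = 0.0747). Col8a1 was called in ButMorphine without ButMorphine array 2 (0.31, adjusted p = 0.0329). The SalMorphine difference of Col8a1 stayed between 0.28 and 0.44, with adjusted p-values of 0.00232 to 0.236. Median centring, single probe sets, unnamed rows, a trended robust fit and an adjusted p under 0.1 left these counts within 1.5 times. The filter to brighter rows left no collagen and was not run for them.

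With the replicate block, the SalMorphine and combined counts were 0, and Col8a1 was at 0.41 (adjusted p = 0.236) and 0.31 (adjusted p = 0.246). The block fitted a term for each replicate number. Saline arrays 4 to 6 had numbers that no morphine array shared, so they added nothing to these comparisons. The Col8a1 differences were thus those with Saline arrays 1 to 3 only, and the lost calls cannot be set down to blocking alone. Correlations of same-numbered deviations ran from -0.27 to 0.20. They cannot show whether the samples were paired. Each mirrored Saline pair sums to 0, and the baseline of the morphine arrays is not given. Over all genes the calls were 495 for ButMorphine, 531 for SalMorphine and 916 for both, against 51, 54 and 83 with the block, 100, 75 and 194 after quantile normalization, and 917, 473 and 1481 with array weights. With Saline arrays 1 to 3 only, without the block, they were 106, 100 and 164. With 1 array of each mirrored pair they were 142, 117 and 210 (Saline arrays 1, 3 and 5) or 144, 186 and 297 (Saline arrays 2, 4 and 6). Only the groups compared gave 988 for ButMorphine, and the trended robust fit gave 230, 231 and 524. Values of the 18 collagens named by rule were followed under alternatives, 1908 in all. Of these, 1877 kept their side of the threshold, and 66 of them, all uncalled, took the other sign. The call was lost for 21 values, gained for 10, and 0 called values changed sign. Most values were uncalled in the main fit and had no call to lose. All lost calls were those of Col8a1, in 9 of 27 alternatives for SalMorphine and 12 of 26 for both morphine groups. Collagens added by role and list genes were not followed.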

Other observations

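Markers of other cell types were also compared with Saline, a test that 2.48% of all genes passed in ButMorphine and 2.66% in SalMorphine. At an unadjusted p under 0.05 by limma, 10.5% of all genes were higher and 6.44% lower in ButMorphine, and 6.81% and 8.73% in SalMorphine. Among 8 astrocyte markers Gjb6 was higher in both morphine groups. Among 7 markers of the oligodendrocyte lineage Sox10 was lower in both, at -0.25 in each. Among 7 microglial markers 1 was lower in ButMorphine and 2 were lower in SalMorphine, and list means per array ran from -0.20 to -0.12 in ButMorphine, from -0.23 to -0.13 in SalMorphine and from -0.08 to 0.08 in Saline. Among 8 measured markers of striatal projection neurons, 0 passed in ButMorphine (1 higher and 1 lower at an unadjusted p under 0.05 by limma) and 2, Pde10a and Drd2, were lower in SalMorphine. At that unadjusted p, 0 of these markers were higher and 7 lower in SalMorphine. Among 8 thalamus and septum markers, 0 passed in ButMorphine (2 higher and 0 lower at an unadjusted p under 0.05 by limma) and 3 were higher in SalMorphine. At that unadjusted p, 5 of them were higher and 0 lower in SalMorphine. Among 7 ependymal markers, 0 passed in ButMorphine (3 higher and 0 lower at an unadjusted p under 0.05 by limma) and Ak7 was higher in SalMorphine. At that unadjusted p, 3 ependymal markers were higher and 0 lower in SalMorphine. None of 6 cortical excitatory neuron markers passed by limma (1 higher and 0 lower in ButMorphine, 0 higher and 2 lower in SalMorphine at an unadjusted p under 0.05), and their list mean was -0.74 on SalMorphine array 2, against 0.14 and -0.26 on SalMorphine arrays 1 and 3.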
